A study of Rattus norvegicus with 20 samples.

Results

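The tubulin, kinesin and dynein genes expressed in the hypothalamic supraoptic nucleus (SON) of the rat were examined under ageing and under dehydration (DH). Members were chosen by gene symbol: alpha-, beta- and gamma-tubulins (Tuba, Tubb, Tubg), kinesins (Kif, Kifc), kinesin light chains (Klc) and cytoplasmic dynein subunits (Dync). Of 32402 genes in the tables, 20849 of which carried a symbol, 69 matched, 17 of them tubulins and 52 motor genes. A mean of at least 10 normalized counts in 1 or more of the 3 tables was reached by 62 members, 14 tubulins and 48 motor genes. Tuba3a, Tuba3b, Tubb1, Kif2b, Kif12, Kif14 and Kif28p fell below it in every table, and Kif2c and Kif18a fell below it in the aged DH table, which left 46 motor genes there.

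All rats were male Wistar Han. Poly(A) RNA was sequenced from bilateral 1-mm punches of the SON of 20 rats in 4 groups of 5: adult (3 months) euhydrated (EH), adult DH, aged (18 months) EH and aged DH. EH rats drank freely. For DH rats the treatment protocol in the labels gives 2 days of dehydration, whereas the study's methods give 72 hours without water. The study had published the adult data earlier, and its methods state that adult and aged rats were studied side by side, with punching and RNA isolation by 1 researcher and sequencing at the same time. Cages, not single rats, were assigned to EH or DH, and the labels do not tie rats to cages. A punch holds many cell types, and in such bulk samples fewer cells of a type and less RNA per cell cannot be told apart.

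Microtubules are polymers of alpha- and beta-tubulin dimers, nucleated from rings that contain gamma-tubulin. Along them, kinesins carry most cargo outwards towards the axon terminal and cytoplasmic dynein carries cargo back to the cell body. The magnocellular neurones of the SON depend on this traffic, because vasopressin and oxytocin are packed into granules in the cell body and carried down the axon to the posterior pituitary, and during dehydration their cell bodies enlarge and hormone synthesis rises.

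Reads recovered from the adult DH table came to between 24268398 and 28491926 a library, and the summed normalized counts lay between 25931931 and 28689164 a library over the 3 tables. The differences given are log2 fold changes (LFC) of the normalized count plus 1, ± SE, from limma fits over all genes whose mean was 10 or more, and a gene was called where its Benjamini-Hochberg adjusted p over all genes tested was under 0.05. The magnocellular markers Avp, Oxt, Pdyn, Gal, Caprin2, Creb3l1 and Cartpt were present in every table. Of these 7, 4 were called higher in adult DH, where 7.67% of all genes tested were, and 3 in aged DH, where 4.05% were. Their summed level ran from 209253 to 300195 in adult EH rats and 307453 to 407876 in adult DH rats, and from 272018 to 389892 in aged EH rats and 326550.0 to 540313 in aged DH rats. The part of these shifts in the results on tubulins and motors was not tested.

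In adult rats 5 tubulins rose with dehydration, and the same 5 rose in aged rats: the beta-tubulins Tubb6, Tubb2b, Tubb4b and Tubb3 and the alpha-tubulin Tuba1b. No tubulin was called lower at either age. The 5 of 14 (35.7%) called higher in adult DH stood against 7.67% of all genes tested, and the 5 of 14 in aged DH against 4.05%. Over the 15159 genes fitted at both ages, 2.94% were called higher in both comparisons. The median LFC of the 14 tubulins was 0.07 in adult DH and 0.11 in aged DH, where the medians over all genes were -0.0073 and -0.0030. Of genes whose mean was 300 or more, 9.97% were called higher in adult DH and 5.52% in aged DH, and 13 of the 14 tubulins, including the 5 that rose, belonged to these. EH and DH rats did not overlap for 5 tubulins higher and 1 lower in adults, where 6.81% of all genes were apart and higher and 4.08% apart and lower, and for 5 higher (Tuba1a in place of Tubb3) and 0 lower in aged rats, where 4.12% and 2.93% were. At an unadjusted p under 0.05 there were 7 of 14 tubulins at each age, against 26.9% of all genes in adult DH and 21.4% in aged DH.

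Tubb6, the class V beta-tubulin, which is found at low level in many tissues, rose most. Its normalized counts in the 5 adult EH rats were 267, 314, 341, 379.8 and 419.8, against 580.4, 592, 613, 631 and 683 in the adult DH rats. In aged rats they were 268, 338, 379.8, 383 and 413 without and 465, 588, 650.1, 687 and 858 with dehydration. Every DH rat lay above every EH rat of its age, and the aged DH rats were the more spread. The LFC was 0.86 ± 0.10 in adult rats (a rise of 81.6%, adjusted p = 8.9e-05) and 0.85 ± 0.14 in aged rats (a rise of 80.4%, adjusted p = 0.0029).

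Tubb2b encodes a class II beta-tubulin of neurones. Adult EH rats had 2979, 3113, 3255, 3304 and 3459 normalized counts and adult DH rats 3547, 3869, 3896, 3939.5 and 4240.3. The aged EH rats had 2822, 2898, 3006, 3152 and 3222 and the aged DH rats 3602, 3855, 3855, 4094 and 4147. The groups did not overlap at either age, with an LFC of 0.27 ± 0.05 in adult (adjusted p = 0.0022) and 0.37 ± 0.05 in aged rats (adjusted p = 5.3e-04). Its paralogue Tubb2a, the other class II gene, was not called at either age (LFC -0.01 ± 0.05 and 0.09 ± 0.04, adjusted p = 0.93 and 0.15). The log2 ratio of Tubb2b to Tubb2a within a rat, which no scaling factor of a library can move, ran from 0.255 to 0.504 in adult EH and from 0.508 to 0.716 in adult DH rats. In aged rats it ran from 0.191 to 0.398 without and from 0.449 to 0.626 with dehydration, so that each DH rat again lay above each EH rat of its age. This pair was set side by side after its values were seen, and the ratio has no test of its own. Reads shared between near-identical tubulin genes may be divided unevenly by read counting, so the split between paralogues is uncertain.

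Tubb4b encodes the broadly expressed class IVb beta-tubulin. Its normalized counts were 9694, 9820.4, 10021, 10082 and 10255 in adult EH and 11016, 11107, 11517, 11571 and 11979.5 in adult DH rats. In aged EH rats they were 10010.1, 10196, 10353, 10419.6 and 11166, and in aged DH rats 11653, 11720.5, 11814, 11898 and 11974. Both pairs of groups were apart, and the 5 aged DH rats differed little among themselves (11812 ± 129.8, SD, n = 5). The LFC was 0.20 ± 0.03 (adjusted p = 6.6e-04) in adult and 0.18 ± 0.03 (adjusted p = 0.0047) in aged rats. The class IVa gene Tubb4a, a tubulin abundant in myelinating glia, gave LFCs of -0.05 ± 0.06 and 0.10 ± 0.05 and was not called (adjusted p = 0.63 and 0.29).

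Tubb3, the class III beta-tubulin used as a marker of neurones, had 13278, 13312, 13452, 13747 and 14526 normalized counts in adult EH rats and 14696, 14898, 15707, 16008 and 16143 in adult DH rats. The aged EH rats had 13992, 14261, 14419.6, 14613 and 15493, and the aged DH rats 15185, 16044, 16293, 16432 and 16680.5. Adult groups were apart, while in aged rats the lowest DH rat lay below the highest EH rat. The LFC was 0.18 ± 0.04 (adjusted p = 0.0044) and 0.15 ± 0.04 (adjusted p = 0.026). The aged call was lost when any 1 of aged EH 1, 2 and 5 and aged DH 1, 2 and 3 was left out (adjusted p = 0.051 to 0.077).

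Tuba1b was the alpha-tubulin that passed the test. It had 9256, 9287, 9487, 9545 and 9939 normalized counts in adult EH and 10026, 10159.8, 10349.7, 10621 and 10859 in adult DH rats. In aged rats it had 9479.5, 9910.4, 10029.8, 10089 and 10584 without and 10897, 10967, 11058, 11102 and 11347 with dehydration. The groups were apart at both ages, with an LFC of 0.13 ± 0.03 (adjusted p = 0.013) in adult and 0.15 ± 0.03 (adjusted p = 0.016) in aged rats. Tuba1a, the main alpha-tubulin of growing neurones, had LFCs close to these that missed the threshold (0.11 ± 0.04, adjusted p = 0.097, and 0.12 ± 0.04, adjusted p = 0.072), and the ratio of Tuba1b to Tuba1a overlapped between EH and DH rats at both ages.

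**Figure D1:**
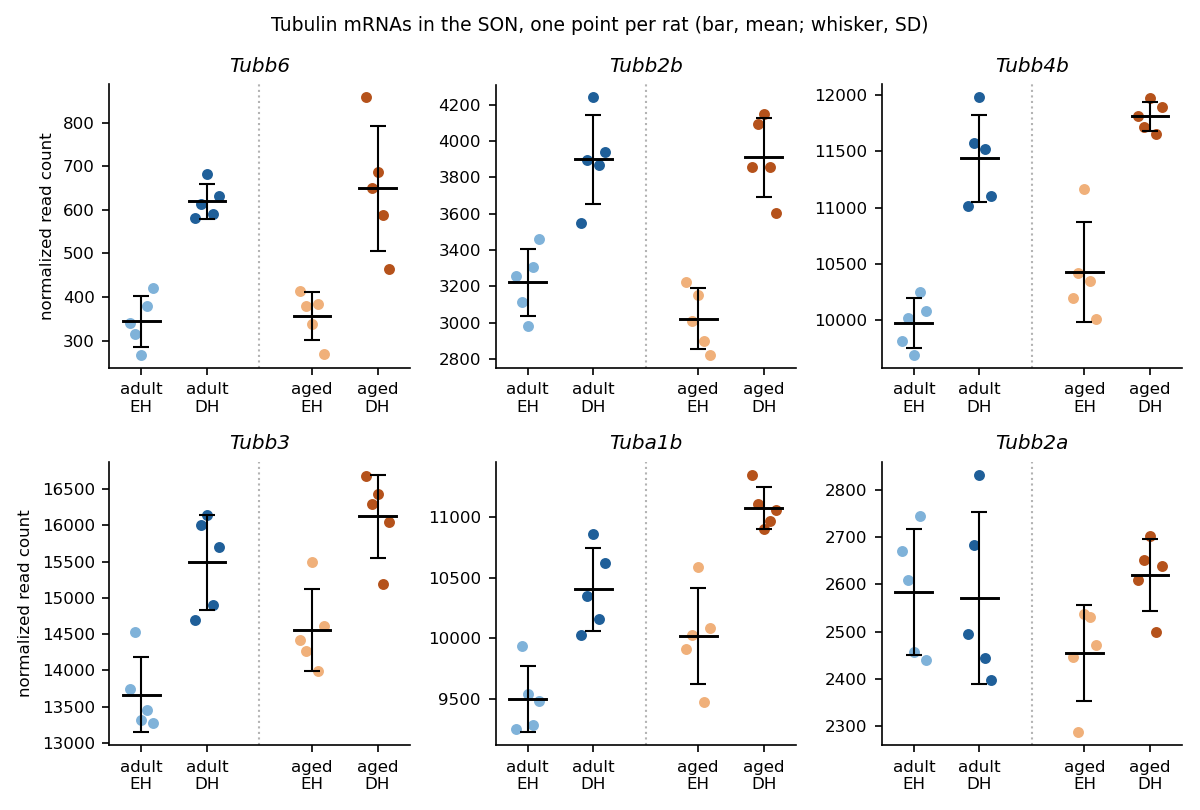
Normalized read counts (y axis, a separate scale for each gene that does not start at 0) of the 5 tubulins that rose and of Tubb2a in adult and aged EH and DH rats; each point is 1 rat, the bar is the mean and the whisker the SD over 5 rats. Adult and aged rats come from tables normalized separately (dotted line). DH rats lie above EH rats of their age for the 5 tubulins, with overlap only for Tubb3 in aged rats, while Tubb2a overlaps at both ages.

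The sequences around the start sites of these 5 genes are shown because the genes moved together at both ages. The windows are from RefSeq (GRCr8, 250 bases before to 50 bases after the start, 5′ to 3′ on the gene's strand), a newer assembly than the one the reads were aligned to. They matched all 14 tubulins and 39 of the 48 motor genes by gene ID. Capitals mark the CCAAT box, searched as CCAAT on both strands, so that ATTGG marks it on the other strand.
Tubb6 (chr18:63213037-63213336, plus strand): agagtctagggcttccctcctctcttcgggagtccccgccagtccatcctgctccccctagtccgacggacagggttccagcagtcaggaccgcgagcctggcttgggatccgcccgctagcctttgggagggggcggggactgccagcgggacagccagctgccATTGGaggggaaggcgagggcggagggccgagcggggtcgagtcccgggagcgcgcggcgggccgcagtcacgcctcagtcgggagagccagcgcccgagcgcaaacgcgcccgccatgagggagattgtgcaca
Tubb2b (chr17:30952836-30953135, plus strand): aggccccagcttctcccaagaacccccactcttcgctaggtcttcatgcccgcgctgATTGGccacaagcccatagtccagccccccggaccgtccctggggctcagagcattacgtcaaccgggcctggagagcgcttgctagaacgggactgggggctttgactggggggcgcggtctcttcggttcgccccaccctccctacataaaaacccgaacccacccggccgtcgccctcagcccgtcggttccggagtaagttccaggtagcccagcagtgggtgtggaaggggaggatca
Tubb4b (chr3:28438406-28438705, minus strand): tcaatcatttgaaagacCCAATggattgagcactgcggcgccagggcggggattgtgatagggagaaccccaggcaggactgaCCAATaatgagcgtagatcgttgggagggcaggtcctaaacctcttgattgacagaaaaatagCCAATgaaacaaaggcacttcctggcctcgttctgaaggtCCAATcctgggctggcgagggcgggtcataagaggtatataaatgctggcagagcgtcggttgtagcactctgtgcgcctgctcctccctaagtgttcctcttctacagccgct
Tubb3 (chr19:68365437-68365736, plus strand): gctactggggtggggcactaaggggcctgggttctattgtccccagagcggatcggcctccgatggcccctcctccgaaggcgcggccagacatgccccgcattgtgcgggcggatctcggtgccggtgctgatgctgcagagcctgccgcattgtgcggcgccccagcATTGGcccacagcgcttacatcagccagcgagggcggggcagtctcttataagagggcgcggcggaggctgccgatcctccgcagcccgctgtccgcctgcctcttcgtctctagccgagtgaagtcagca
Tuba1b (chr7:131972538-131972837, minus strand): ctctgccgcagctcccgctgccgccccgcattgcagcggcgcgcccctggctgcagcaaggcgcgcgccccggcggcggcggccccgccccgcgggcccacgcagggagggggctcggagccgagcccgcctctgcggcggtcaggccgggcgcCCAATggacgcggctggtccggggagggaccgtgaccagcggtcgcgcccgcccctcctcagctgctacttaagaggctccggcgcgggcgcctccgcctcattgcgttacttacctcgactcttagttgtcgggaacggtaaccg

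Each of the 5 windows held the CCAAT box, 4 times in Tubb4b and 1 time in the others, against 37.5% of the 33469 windows in the table. Among the 9 tubulins that were not called higher with dehydration, 4 held it (Tuba1a, Tuba1c, Tubb5 and Tubg1), as did 15 of the 39 motor genes with a window. The GC box GGGCGG was in 4 of the 5 windows and in 33.1% of all windows. It was also in 6 of the other 9 tubulin windows and 31 of the 39 motor windows (79.5%), so it did not set the 5 apart. The TATA box TATAAA was in 1 of 5 and 14.2%, the CRE TGACGTCA in none and 1.8%, and the AP-1 site TGANTCA in none and 7.3%. The motifs were searched on both strands, with no overlap among them in letters, after the calls were known. A match is a description of the letters alone.

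Tubb2a, printed for comparison with its neighbour Tubb2b on chromosome 17, held no CCAAT box but 1 CRE (capitals), which among tubulins was found in this window only.
Tubb2a (chr17:31001936-31002235, plus strand): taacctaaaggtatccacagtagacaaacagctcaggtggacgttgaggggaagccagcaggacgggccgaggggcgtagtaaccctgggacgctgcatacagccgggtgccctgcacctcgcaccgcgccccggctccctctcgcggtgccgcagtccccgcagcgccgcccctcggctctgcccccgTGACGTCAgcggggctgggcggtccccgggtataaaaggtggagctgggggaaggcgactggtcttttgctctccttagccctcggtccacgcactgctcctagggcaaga

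The other 9 tubulins were called in neither DH comparison. In adult rats their LFCs lay between -0.17 (Tubg2) and 0.11 (Tuba1a), and in aged rats between -0.03 (Tubg2) and 0.23 (Tuba1c). Tuba1c was the tubulin with the lowest count of those tested (41.6 ± 15.98, SD, n = 5, in aged DH rats). Tubb5, a beta-tubulin of many cell types, gave 0.07 ± 0.04 and 0.05 ± 0.04, Tuba4a -0.04 ± 0.03 and -0.02 ± 0.04, and Tuba8 0.08 ± 0.07 and 0.06 ± 0.06. The gamma-tubulins, which nucleate microtubules and are not part of the wall of the polymer, had negative LFCs in adult rats (Tubg1 -0.07 ± 0.04, adjusted p = 0.31; Tubg2 -0.17 ± 0.05, adjusted p = 0.056). Tubg2 had 875, 884, 934, 943 and 987 normalized counts in adult EH and 725, 833, 835, 848 and 871 in adult DH rats, so its groups were apart although it missed the threshold. In aged rats the gamma-tubulins were near 0 (Tubg1 0.01 ± 0.04, Tubg2 -0.03 ± 0.05). By structural class, 4 of 7 beta-tubulins, 1 of 5 alpha-tubulins and 0 of 2 gamma-tubulins were called higher with dehydration at each age.

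Motor genes moved in both directions. In adult DH, 6 of 48 were called, 3 higher (Kif5c, Dync1li1, Kif21a) and 3 lower (Kif26b, Kif19, Kifc2), where 7.67% of all genes were called higher and 4.99% lower. In aged DH, 3 of 46 were called, Kif5b higher and Kifc2 and Kif6 lower, against 4.05% and 3.25% of all genes. These shares lie near those of all genes, and the median LFC of the motor genes was 0.00015 in adult DH and 0.01 in aged DH. The adult count fell to 3 without adult EH rat 1, 4 or 5 or adult DH rat 2, 3, 4 or 5, and the aged count to 1 without aged EH rat 5.

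**Figure D2:**
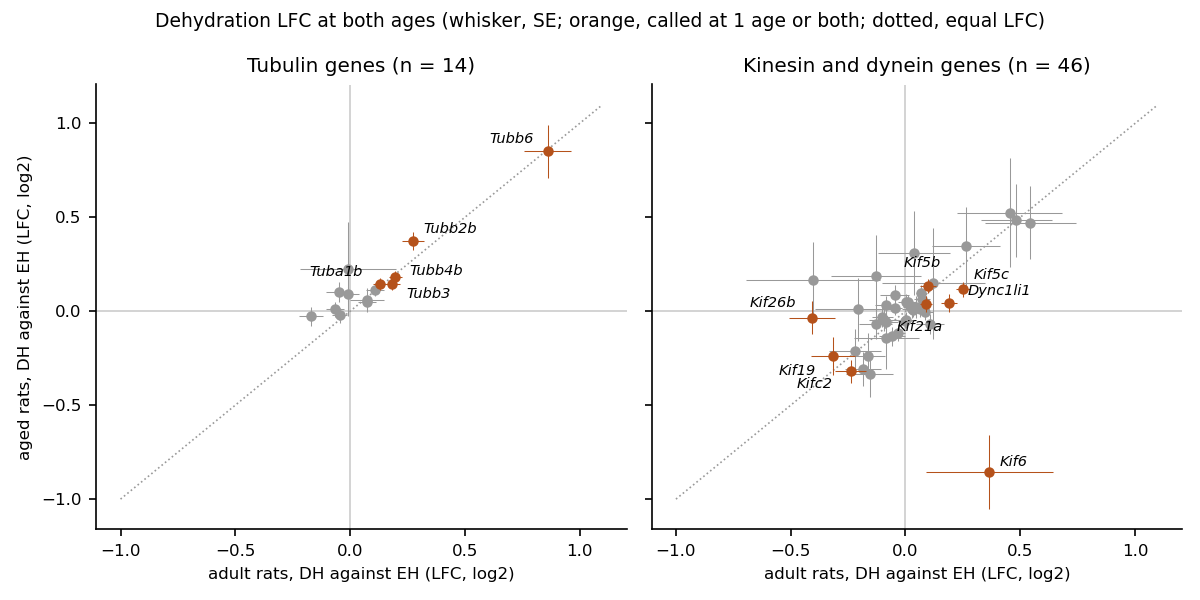
LFC with dehydration in adult rats (x axis) against aged rats (y axis), log2 scale, for 14 tubulins (left) and the 46 motor genes fitted at both ages (right); whiskers are SE, orange points were called at 1 age or both, and the dotted line marks equal LFC. Tubb6, Tubb2b, Tubb4b, Tubb3 and Tuba1b lie near the line, whereas the called motor genes are scattered on both sides of 0 and Kif6 lies far below it.

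Adult and aged DH comparisons share no rat. Over the 14 tubulins the LFCs at the 2 ages had a Pearson r of 0.945 and a Spearman rho of 0.824, which became 0.757 and 0.780 without Tubb6. For the 46 motor genes the values were 0.432 and 0.545, and for all 15159 genes 0.488 and 0.440. These are descriptions across genes, which share libraries and are not independent replicates. Of the 14 tubulins, 8 had positive LFCs at both ages and 2 negative LFCs at both.

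Kinesin-1, the motor of fast outward transport, is built of the heavy chains Kif5a, Kif5b and Kif5c and of light chains that bind cargo. Kif5c, a heavy chain enriched in neurones, had 15979.8, 16091, 16413, 16894 and 16937 normalized counts in adult EH rats and 18531, 19618, 19658, 19862 and 20379 in adult DH rats. In aged EH rats it had 16745, 16757, 17979, 18214 and 18321, and in aged DH rats 18356, 18649.7, 18870.5, 19245 and 20396. All DH rats exceeded all EH rats of their age, by a wider margin in adults. The LFC was 0.25 ± 0.03 in adult rats (adjusted p = 1.2e-04), and in aged rats it was 0.12 ± 0.04 and missed the threshold (adjusted p = 0.091). The aged less the adult LFC, which did not pass the test, was -0.13 ± 0.05 (95% interval -0.24 to -0.03, adjusted p = 0.38).

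Kif5b, the heavy chain present in most cells, was called higher in aged DH, with 7028, 7165, 7255, 7420.3 and 7571 normalized counts in aged EH and 7408, 7818, 8153, 8312 and 8386 in aged DH rats. It overlapped in part, and its LFC of 0.14 ± 0.04 (adjusted p = 0.046) lost the call when any rat other than aged DH 2 was left out (adjusted p = 0.059 to 0.12). In adult rats the LFC was 0.10 ± 0.03 (adjusted p = 0.071). Kif5a, a heavy chain of neurones, gave LFCs of 0.0025 ± 0.03 in adult and 0.05 ± 0.04 in aged rats and was not called. Within adult rats the log2 ratio of Kif5c to Kif5a ran from -1.36 to -1.25 in EH and from -1.16 to -0.971 in DH rats without overlap, and within aged rats from -1.30 to -1.20 and from -1.25 to -1.19 with overlap. The light chains Klc1 (0.07 ± 0.03 and 0.07 ± 0.04) and Klc2 (-0.04 ± 0.03 and 0.02 ± 0.04) were called in neither comparison.

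The Kif5c window is shown because Kif5c was the motor gene with the lowest adjusted p under dehydration. It held a CRE (capitals), a motif found in 5 of the 39 motor windows (12.8%) and 1.8% of all windows. The other motor windows with it were those of Klc1, Kif15, Kif17 and Kif18a, none of them called with dehydration.
Kif5c (chr3:54441057-54441356, plus strand): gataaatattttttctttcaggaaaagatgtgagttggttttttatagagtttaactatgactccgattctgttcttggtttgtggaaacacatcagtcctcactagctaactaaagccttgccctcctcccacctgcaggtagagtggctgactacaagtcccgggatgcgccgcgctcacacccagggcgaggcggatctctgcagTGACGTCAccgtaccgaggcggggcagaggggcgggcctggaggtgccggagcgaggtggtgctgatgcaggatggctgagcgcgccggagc

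Kif1a and Kif1b of the kinesin-3 family carry synaptic vesicle precursors and dense-core granules, and were not called (Kif1a 0.03 ± 0.03 in adult and 0.01 ± 0.04 in aged rats, Kif1b 0.07 ± 0.03 and 0.02 ± 0.04). The kinesin-2 subunits Kif3a (-0.03 ± 0.03 and -0.11 ± 0.04) and Kif3b (0.0026 ± 0.03 and -0.05 ± 0.04) likewise missed the threshold. The 95% intervals in adult rats were -0.10 to 0.03, -0.07 to 0.08, -0.02 to 0.09 and 0.01 to 0.13 for Kif3a, Kif3b, Kif1a and Kif1b.

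Cytoplasmic dynein 1, the motor of inward transport, was represented by 5 subunits, of which Dync1li1 was called. This light intermediate chain, which joins the motor to its cargo adaptors, had 1513, 1538, 1538, 1551 and 1597 normalized counts in adult EH rats and 1708, 1716, 1728, 1807 and 1866 in adult DH rats. Its adult groups were apart, with an LFC of 0.19 ± 0.03 (adjusted p = 0.0028). In aged rats the counts were 1582, 1678, 1706, 1799 and 1898 without and 1718, 1724, 1806, 1818 and 1849 with dehydration. These overlapped, with an LFC of 0.04 ± 0.05 (adjusted p = 0.67), and the aged less the adult LFC, -0.15 ± 0.06, did not pass the test (adjusted p = 0.42). The heavy chain Dync1h1 (0.09 ± 0.03 in adult and -0.0044 ± 0.04 in aged rats), the intermediate chains Dync1i1 (0.01 ± 0.03 and 0.05 ± 0.04) and Dync1i2 (-0.0022 ± 0.03 and -0.05 ± 0.04) and the paralogue Dync1li2 (0.02 ± 0.03 and 0.03 ± 0.03) were not called.

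Kifc2, a kinesin-14 of neurones that moves towards the minus end, was the motor gene called lower at both ages. Adult EH rats had 4689.9, 5771, 5913, 5919.5 and 5959 normalized counts and adult DH rats 4471, 4587, 4685, 4751 and 5417. Among adults 1 EH rat lay within the DH range, and the others were above it. Aged EH rats had 5222, 5249, 5716, 6194 and 6267, and aged DH rats 4267, 4388, 4424, 4917 and 4918, without overlap. The LFC was -0.24 ± 0.07 (adjusted p = 0.032) in adult and -0.32 ± 0.06 (adjusted p = 0.005) in aged rats. Over all genes, 0.924% were called lower in both comparisons. The adult call was lost when any rat other than adult EH 6 and adult DH 1 was left out (adjusted p = 0.06 to 0.077).

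**Figure D3:**
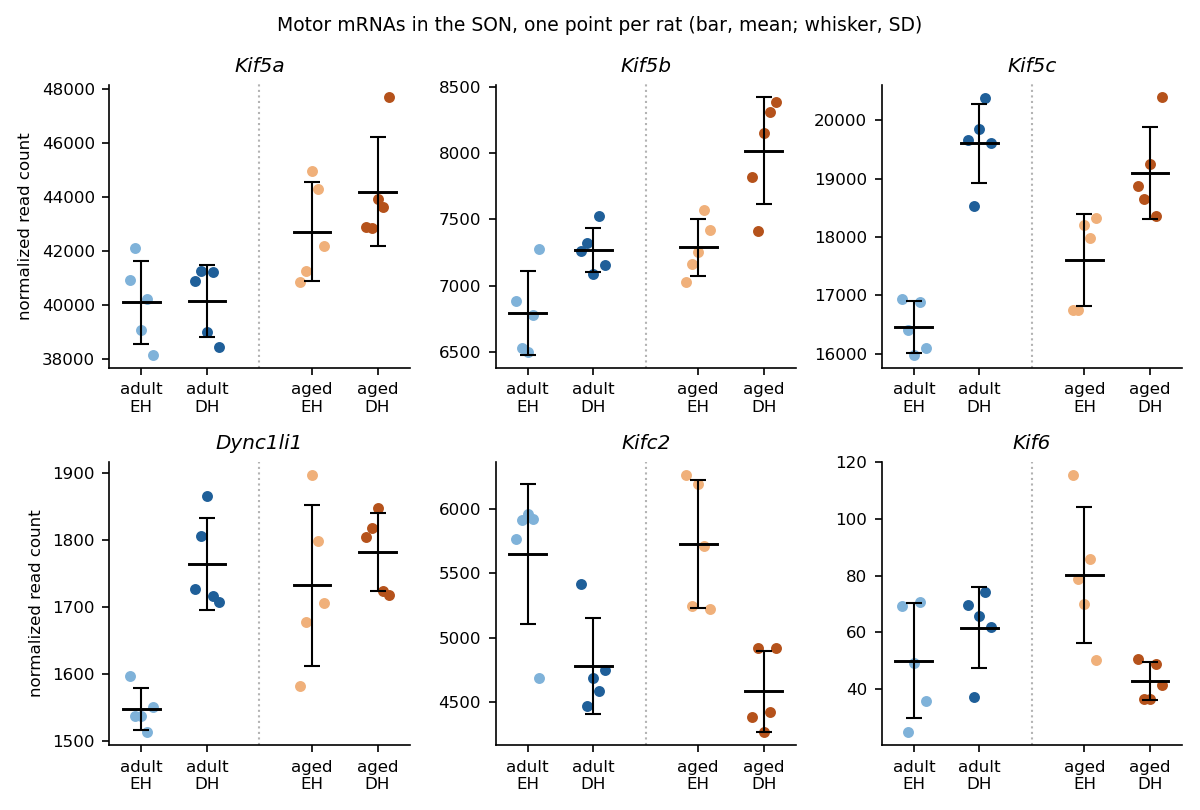
Normalized read counts (y axis, a separate scale for each gene that does not start at 0) of 6 motor genes in adult and aged EH and DH rats; each point is 1 rat, the bar is the mean and the whisker the SD over 5 rats, and the dotted line parts the 2 tables. Kif5c and Dync1li1 stand apart between adult EH and DH rats, Kifc2 is lower in DH at both ages, and Kif6 is lower in DH among aged rats and overlaps among adults.

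Kif21a, a kinesin-4 that limits microtubule growth, rose by 6.35% in adult DH (LFC 0.09 ± 0.03, adjusted p = 0.042), from 7729, 7905, 7956, 8076 and 8382 normalized counts to 8439, 8495, 8496, 8521 and 8628. The groups were apart but close, and the call was kept only when adult EH 6 was the rat left out (adjusted p without any other = 0.064 to 0.10). In aged rats the LFC was 0.04 ± 0.04 (adjusted p = 0.69). Kif26b, an atypical kinesin, fell in adult DH from 180.0, 209, 217, 249 and 253 to 152, 159.8, 163, 175 and 181 normalized counts. Its groups met only at their edges, and its LFC was -0.41 ± 0.10 (adjusted p = 0.017) in adult and -0.03 ± 0.09 (adjusted p = 0.88) in aged rats, a difference of 0.37 ± 0.13 that did not pass the test (adjusted p = 0.35).

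Kif19 and Kif6 are kinesins of motile cilia, which in brain are borne by ependymal cells. Kif19, which shortens microtubules at the tips of cilia, was called lower in adult DH, from 244, 259, 271, 287 and 320.0 normalized counts in EH to 193, 196, 232, 235 and 253 in DH rats (LFC -0.32 ± 0.10, adjusted p = 0.045). The groups overlapped by 1 DH rat, and the call was lost without any rat other than adult EH 6 and adult DH 1 (adjusted p = 0.057 to 0.11). In aged rats the LFC was -0.24 ± 0.10 (adjusted p = 0.18). Kif6 was called lower in aged DH, from 50.4, 69.9, 78.96, 86.03 and 116 to 36.5, 36.6, 41.3, 48.8 and 50.5 normalized counts, with the lowest EH rat inside the DH range. Its LFC was -0.85 ± 0.20 (adjusted p = 0.017; 0.051 without aged EH rat 5). In adult rats it had 24.8, 35.7, 49.2, 69.3 and 70.9 without and 37.3, 61.8, 65.7, 69.7 and 74.1 with dehydration, an LFC of 0.37 ± 0.28 (adjusted p = 0.44).

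Markers of other cell types were followed beside these ciliary kinesins. Of 7 ependymal markers 5 could be tested (Dnah5, Dnah9, Dnai1, Rsph1 and Ccdc39), while Tmem212 was near 0, with means of 0.814 to 3.21 normalized counts. In adult DH, where 4.99% of all genes were called lower, 2 of the 5 were, among them the ciliary dynein Dnah9 (LFC -0.42 ± 0.08, adjusted p = 0.0027), and in aged DH, against 3.25% of all genes, 3 of 5 were (Dnah9 LFC -0.83 ± 0.10, adjusted p = 4.1e-04). The summed level ran from 1709 to 1838 in adult EH and 1354 to 1646 in adult DH rats, and in aged rats from 1545 to 1846 without and 1095 to 1387 with dehydration. In adult DH the LFC of Kif6 was positive but not called, and all 5 markers had negative LFCs (median -0.20). In ageing Kif6 was not called, with means of 52.1 normalized counts in adult EH and 80.3 in aged EH rats. There 4 of the 5 markers had negative LFCs, and 0 were called. Beside Kif6, the glutamatergic markers Neurod6 (LFC -2.49 ± 0.36, adjusted p = 0.0013), Slc17a7 and Neurod2 were also called lower in aged DH, 3 of 5 against the same 3.25%, with summed levels of 1665 to 4045 in aged EH and 849 to 1598 in aged DH rats. In adult rats 0 of these 5 were called and their summed levels overlapped (923 to 3088 in EH, 908 to 2323 in DH). None of the tested markers of either list was at 0 in all libraries, and the part of these cells in the values of Kif19 and Kif6 was not tested.

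Tubulins and motor genes were then set against each other in each rat, as the median over genes of the log2 difference from the mean of the EH rats of the same age. For the 14 tubulins the median ran from -0.042 to 0.040 in the 5 adult EH rats and from 0.035 to 0.161 in the adult DH rats. In aged rats it ran from -0.03 to 0.07 without and from 0.05 to 0.14 with dehydration. These ranges overlapped at both ages. The 48 motor genes ran from -0.01 to 0.02 in adult EH and from -0.02 to 0.02 in adult DH rats, and the 46 fitted in aged rats ran from -0.04 to 0.03 without dehydration and from -0.0062 to 0.03 with it. The tubulin median exceeded the motor median in 5 of 5 adult DH rats (by 0.02 to 0.18) and 5 of 5 aged DH rats (by 0.06 to 0.14). In EH rats the difference ran from -0.03 to 0.04 in adults (above 0 in 2 of 5) and from -0.04 to 0.06 in aged rats (above 0 in 3 of 5), so that EH and DH rats overlapped at both ages. Summed over members, tubulin counts were 125794 ± 3908 (SD, n = 5) in adult EH and 131539 ± 5731 in adult DH rats, and 131589 ± 5195 and 142144 ± 3811 in aged rats. Tubb4a, the tubulin with the highest counts, weighs most on these sums and was not called at either age. Its means were 41029 in adult EH and 39632 in adult DH rats, and 44033 and 47217 in aged EH and aged DH rats. The motor sums were 232275 ± 1791 and 239364 ± 3317 in adult rats and 247917 ± 6910 and 252432 ± 7999 in aged rats. These summaries over a chosen list carry no test.

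**Figure D4:**
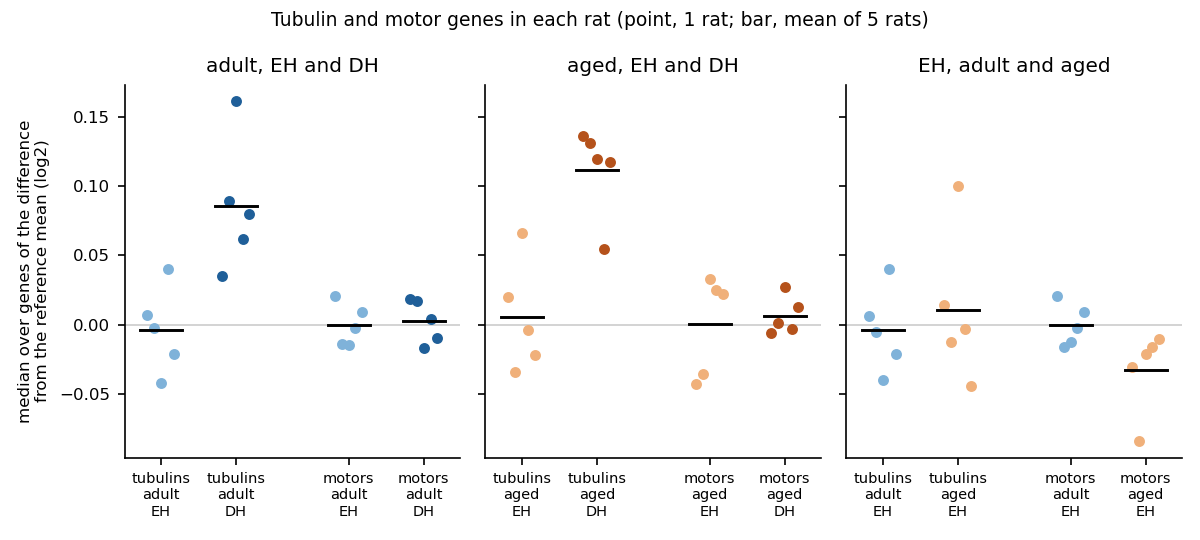
Median over genes of the log2 difference from the reference mean (y axis) for tubulins and motor genes in each rat; the reference is the EH group in the first and second panels and adult EH in the third, each point is 1 rat and the bar is the mean of 5 rats. Tubulin medians of DH rats lie between 0.035 and 0.16 in adults and between 0.05 and 0.14 in aged rats. They overlap those of EH rats at both ages. The motor medians of DH rats stay between -0.02 and 0.03.

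Ageing was examined in EH rats, aged against adult. Here 2 of 14 tubulins were called higher (Tuba8 and Tuba4a) and 0 lower, and 2 of 48 motor genes lower (Kif19 and Kif26a) and 0 higher. Of all genes, 5.99% were called, 2.69% higher and 3.30% lower. Adult and aged rats did not overlap for 2 tubulins higher and 1 lower and for 2 motor genes higher and 3 lower, where 2.95% of all genes were apart and higher and 3.43% apart and lower. Tuba8, a divergent alpha-tubulin, had 302, 324, 334, 370.0 and 389 normalized counts in adult and 433, 461, 481, 494 and 524 in aged EH rats. The groups did not meet, and the LFC was 0.48 ± 0.08 (a rise of 39.5%, adjusted p = 0.0031). Tuba4a, an alpha-tubulin of mature neurones, had 6343, 6601, 6630.1, 6797 and 7142 in adult and 7173, 7299.9, 7388, 7489 and 7580.1 in aged EH rats. These were apart by a small gap (LFC 0.14 ± 0.03, adjusted p = 0.027), and the call was lost when any 1 of adult EH 2, 4 and 6 and aged EH 1, 4 and 5 was left out (adjusted p = 0.051 to 0.064). Neither Tuba8 nor Tuba4a was called with dehydration at either age. None of the 5 tubulins that rose with dehydration was called with age (LFC -0.15 for Tubb2b to 0.03 for Tubb3), Tubb2b having an adjusted p of 0.076. Tubb2a, whose aged rats all lay below its adult rats (-0.13 ± 0.04, adjusted p = 0.09), Tuba1a (-0.09 ± 0.03, adjusted p = 0.16), Tuba1c, Tubb4a, Tubb5, Tubg1 and Tubg2 were not called either. The ageing and DH comparisons share EH rats, and their values are given side by side only.

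Kif19 had 255, 269.6, 283, 299 and 334 normalized counts in adult and 191, 192, 199, 215 and 218 in aged EH rats, an LFC of -0.50 ± 0.08 (adjusted p = 0.004). Kif26a, an atypical kinesin, had 512, 539.5, 542, 602 and 604 in adult and 402, 424, 426, 437 and 489 in aged EH rats, an LFC of -0.36 ± 0.07 (adjusted p = 0.007). For both genes every aged rat lay below every adult rat. Summed ependymal markers ran from 1781 to 1916 in adult and 1547 to 1848 in aged EH rats, with 0 of 5 called. The transport motors Kif5a (0.03), Kif5b (0.05), Kif5c (0.04), Klc1 (0.07), Klc2 (0.02), Kif1a (0.10), Kif1b (0.02), Kif3a (0.03), Kif3b (-0.03), Dync1h1 (0.03), Dync1i1 (0.05), Dync1i2 (0.04), Dync1li1 (0.10) and Dync1li2 (0.04) had ageing LFCs between -0.03 and 0.10, and none was called. Kif1a came nearest, its aged rats all above its adult rats (adjusted p = 0.077).

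Kinesins of the mitotic spindle and of cytokinesis were grouped by their known roles, after the values had been seen, as Kif11, Kif15, Kif18b, Kif20a, Kif20b, Kif22, Kif23, Kif4a and Kifc1. Kif18a and Kif2c were left out, because they reached a mean of 10 in adult EH rats (12.7 and 15.1) but not in aged EH rats (7.91 and 8.82). The 9 had ageing LFCs between -0.85 (Kif18b) and -0.14 (Kif20a), with a median of -0.51, a description that the late choice of the group does not allow to be tested. None was called, and 7 had an unadjusted p under 0.05, where 20.3% of all genes had. The dividing cell markers moved beside them. Of 6 such markers, 2 were called lower with age (3.30% of all genes), Mki67 (LFC -0.79 ± 0.13, adjusted p = 0.0037) and Top2a (LFC -0.97 ± 0.25, adjusted p = 0.039). Their summed level ran from 234 to 285 in adult and 146 to 195 in aged EH rats, without overlap, and none of the 6 was at 0 in all libraries. The part of dividing cells in these kinesin values was not tested. With dehydration the 9 kinesins had 5 positive and 4 negative LFCs in adult rats (median 0.04) and 8 positive and 1 negative in aged rats (median 0.19). None was called in either comparison, and Mki67 was called higher in adult DH (LFC 0.40 ± 0.11, adjusted p = 0.031), with 0 of the 6 markers called in aged DH. The 6 markers had 6 positive LFCs in adult DH (median 0.40) and 5 positive and 1 negative in aged DH (median 0.33). Their summed level overlapped in adult rats (224 to 274 in EH, 267 to 388 in DH). In aged rats it ran from 145 to 193 in EH and from 204 to 250 in DH, without overlap. The 37 motor genes outside cell division had a median ageing LFC of -0.01.

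**Figure D5:**
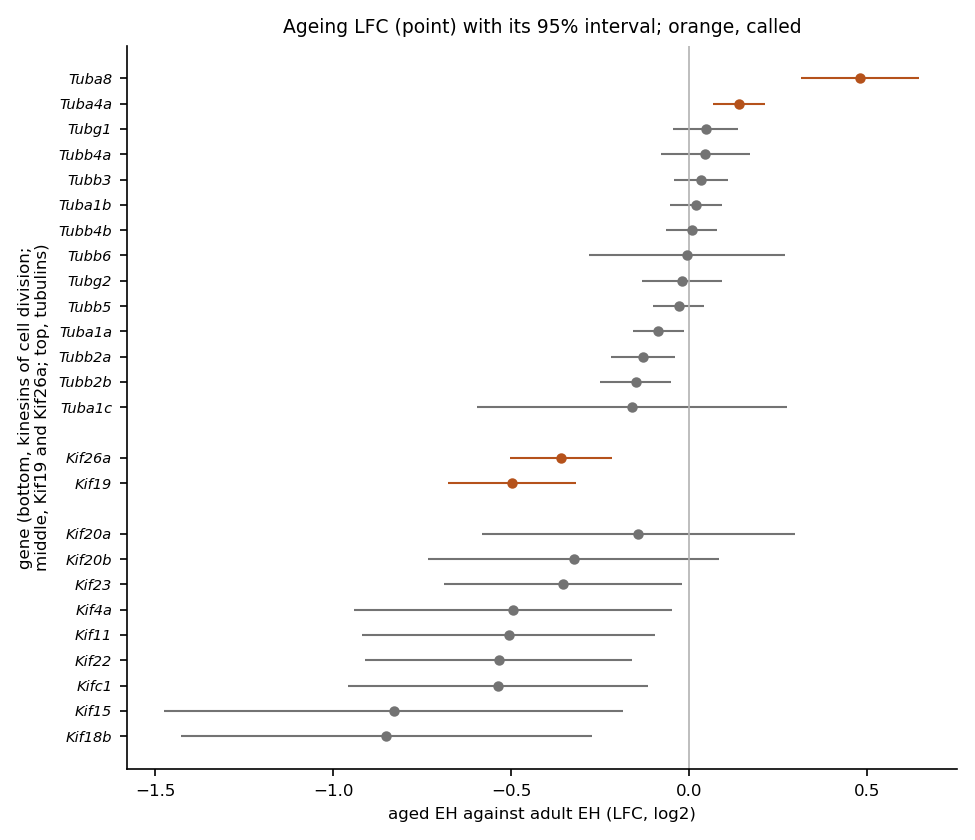
LFC of aged EH against adult EH rats (x axis, log2) for the 14 tubulins (top), Kif19 and Kif26a (middle) and 9 kinesins of cell division grouped after their values were seen (bottom), each with its 95% interval; orange marks called genes. Tuba8 and Tuba4a lie above 0, and the points of the 9 kinesins lie between -0.85 and -0.14, none of them called.

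The difference between the aged and the adult response to dehydration was tested in a fit of all 20 rats. No gene of the 15326 tested was called by limma, whereas 1522 genes (9.93%) had an unadjusted p under 0.05. Fits with no variance trend called 1 gene and fits with a replicate block 3 genes over the whole table, and none of these was a tubulin or a motor gene. At an unadjusted p under 0.05 there were 0 of 14 tubulins and 4 of 47 motor genes (Kif6, Kif26b, Kif5c and Dync1li1). The differences of the 14 tubulins (aged LFC minus adult LFC) lay between -0.03 and 0.23. For the 5 that rose they were -0.01 ± 0.19 for Tubb6 (95% interval -0.41 to 0.39), 0.10 ± 0.07 for Tubb2b (-0.05 to 0.24), -0.02 ± 0.04 for Tubb4b (-0.10 to 0.07), -0.03 ± 0.05 for Tubb3 (-0.14 to 0.07) and 0.01 ± 0.04 for Tuba1b (-0.07 to 0.10). The largest difference among members was that of Kif6, -1.22 ± 0.36 (adjusted p = 0.27).

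Genes that act on tubulin and microtubules were followed as lists beside the members, to be read against the shares of all genes called higher and lower (7.67% and 4.99% in adult DH, 4.05% and 3.25% in aged DH, 2.69% and 3.30% in ageing). Of 24 tubulin-modifying enzymes tested, 4 (16.7%) were called higher and 1 lower in adult DH, and 1 (4.17%) higher in aged DH, near the share of all genes. Ttl, the ligase that restores the end tyrosine of alpha-tubulin, rose at both ages (adult LFC 0.33 ± 0.05, adjusted p = 8.2e-04; aged LFC 0.27 ± 0.04, adjusted p = 0.0024). Agtpbp1, a carboxypeptidase that trims glutamates from tubulin tails (LFC 0.16 ± 0.03, adjusted p = 0.0011), and the severing enzyme Fign (LFC 0.38 ± 0.08, adjusted p = 0.0049) rose in adult DH. In ageing 2 of the 24 were higher and 1 lower, with the deacetylase Sirt2 lower (LFC -0.18 ± 0.04, adjusted p = 0.015) and the polyglutamylase Ttll7 higher (LFC 0.15 ± 0.03, adjusted p = 0.017). The list medians were 0.04 in adult DH, -0.01 in aged DH and 0.03 in ageing.

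Of 23 structural microtubule-associated and plus-end proteins, 5 (21.7%, against 7.67% of all genes) were called higher and 2 lower in adult DH. In aged DH 1 (4.35%, against 4.05%) was higher and 1 lower, and in ageing 0 were called. Dclk1, a microtubule-binding kinase (LFC 0.29 ± 0.04, adjusted p = 7.0e-04), and Mapre1, the plus-end tracking protein EB1 (LFC 0.22 ± 0.04, adjusted p = 0.0027), rose in adult DH, and Mapre1 also in aged DH (LFC 0.14 ± 0.04, adjusted p = 0.04). Map6d1 fell in adult DH (LFC -0.29 ± 0.06, adjusted p = 0.0084), and Dcx, a marker of young neurones, fell in aged DH (LFC -0.28 ± 0.07, adjusted p = 0.034). The list medians of 0.01 in adult DH and 0.0055 in aged DH changed sign under quantile normalization. Of 12 tubulin folding genes, 1 was called higher and 1 lower in adult DH, 2 higher in aged DH and 0 in ageing. Tbcc, a cofactor that releases assembled dimers, rose at both ages (adult LFC 0.18 ± 0.05, adjusted p = 0.042; aged LFC 0.29 ± 0.07, adjusted p = 0.017), while of the prefoldin subunits Pfdn5 fell in adult DH (LFC -0.18 ± 0.03, adjusted p = 0.0025) and Pfdn2 rose in aged DH (LFC 0.20 ± 0.04, adjusted p = 0.0053). None of the 8 subunits of the chaperonin CCT, which folds tubulin, was called in ageing or with dehydration, with LFCs between -0.05 and 0.14.

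Among the 19 dynactin subunits and dynein regulators tested, Ndel1 rose in adult DH (LFC 0.20 ± 0.03, adjusted p = 0.0012), with 0 called in aged DH and in ageing. Of 6 dynein light chains, Dynlt3 rose in adult DH (LFC 0.16 ± 0.04, adjusted p = 0.011) and with age (LFC 0.21 ± 0.04, adjusted p = 0.0089), and Dynlt1 fell with age (LFC -0.35 ± 0.06, adjusted p = 0.0066). Of 11 kinesin cargo adaptors, Kifbp, a protein that binds kinesins and keeps them off microtubules, fell (LFC -0.13 ± 0.03, adjusted p = 0.024) and Kidins220 rose (LFC 0.09 ± 0.03, adjusted p = 0.033) in adult DH, with 0 in aged DH and 0 in ageing. Of 4 stathmins, which sequester tubulin dimers, Stmn4 fell in adult DH (LFC -0.17 ± 0.05, adjusted p = 0.028) and 0 were called elsewhere. Of 11 genes of the gamma-tubulin ring complex, 0 were called in ageing or with dehydration.

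Counts for the remaining marker lists are to be read against the shares of all genes called. These were 7.67% higher and 4.99% lower in adult DH, 4.05% and 3.25% in aged DH, and 2.69% and 3.30% in ageing. In adult DH, aged DH and ageing, 0, 0 and 2 of 6 astrocyte markers were called, the 2 lower. Oligodendrocyte markers gave 1 of 7 lower in adult DH, 1 higher in aged DH and 5 lower in ageing, with summed levels of 269298 to 393809 in adult and 239522 to 290657 in aged EH rats. Of 5 microglial markers 3 were higher in ageing, and of 4 meningeal fibroblast markers tested 3 were lower in ageing, with Col1a2 listed at 0 in every library. Of 4 endothelial markers 1 was lower in ageing, and all 3 lists had 0 called with dehydration. General neurone markers gave 1 of 6 lower in adult DH, 1 higher in aged DH and 0 in ageing, and magnocellular markers 3 of 7 higher in ageing. The part of these shifts in cell markers in the ageing values of Tuba8, Tuba4a and Kif26a was not tested.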

How the data were processed

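SON punches of 20 male rats (4 groups of 5) were profiled by poly(A) RNA-seq. Per the study's methods and the submitters' processing notes, reads were checked with FastQC, aligned with STAR to Rn6, counted with featureCounts (settings for strand and shared reads not given in the sources used here) and scaled with DESeq2. The values the authors deposited are normalized counts, a signal scaled by size factors, in 3 tables (ageing, adult DH, aged DH), each normalized on its own. The authors' means, fold changes and p-values in these tables were not used.

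Tables were joined by Ensembl gene identifier. Genes with a mean of at least 10 were fitted with limma 3.58.1 in R 4.3.3 (empirical Bayes with a variance trend) on log2(normalized count + 1), 2 groups a fit, with two-sided tests and p-values adjusted by Benjamini-Hochberg across all genes fitted, and called at 0.05. The LFC is on the log2(value + 1) scale and understates changes of low genes. The difference between ages used all 20 rats, each from the DH table of its age. Whole reads could be recovered only from the adult DH table, where 100% of the values in each library lay within 0.1 of a whole read, and to these reads edgeR 4.0.16 and DESeq2 1.42.0 were applied as alternatives. The main limma fits, edgeR and DESeq2 were run on simulated data, with rats independent and changes larger than most of those reported here. Smaller changes and the other alternatives were not simulated. Per the study's methods, rats shared cages, cages were assigned to EH or DH, and adult and aged samples were processed together. The labels do not say which rats shared a cage, so the fits treat rats as independent and p-values measure the spread between these rats.

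Members and lists were chosen with earlier results of these data known, so no list has a test of its own. Named genes were all tubulins, motor genes called in any comparison, 14 motors of fast axonal transport, and up to 3 members a list with the lowest adjusted p. The lists were tubulin-modifying enzymes, structural microtubule-associated and plus-end proteins, tubulin folding, CCT, dynactin and dynein regulators, dynein light chains, kinesin cargo adaptors, stathmins, the gamma-tubulin ring complex and 10 sets of cell type markers. Members do not stand for replicates. Alternatives were another pseudocount, filter, scaling or variance model, a replicate block, and leaving out each rat. Promoter windows and figures were made in Python 3.11.15 with matplotlib 3.10.9.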

Additional observations from a re-analysis of the deposited data

Results flagged for a closer look

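Among the 34 named genes, each group of 5 rats in the 2 DH tables was searched for a rat that lay apart from the other 4, and 5 of 136 groups (3.68%) held one, where about 1 in 20 would by chance. In adult DH rats, Dync1i2 was lowest in rat 2 (4009 normalized counts, the next rat 4117), and both gamma-tubulins were lowest in rat 4, Tubg1 at 1454 (the next 1561) and Tubg2 at 725 (the next 833). Kifc2 was lowest in adult EH rat 6 at 4689.9 (the next 5771), which is the EH rat within the DH range of that gene. Kif5a was highest in aged DH rat 6 at 47696 (the next 43920).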

How the results depend on the processing

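No called tubulin or motor gene changed direction under any alternative. Of 136 named values, 33 that lay within 1 SE of 0 changed sign under some setting, and 3 uncalled values farther from 0 did so, under quantile normalization: Kif5c in ageing (-0.00066), Klc1 in adult DH (-0.0060) and Kif1a in adult DH (-0.028). With no variance trend, 1 tubulin was called in ageing and 3 in aged DH, where Tubb3 (adjusted p = 0.076) and Tuba1b (0.055) missed the threshold. The median LFC of motor genes in aged DH was -0.032 at a mean of at least 50. Without 1 rat, tubulins called ranged from 1 to 2 in ageing (1 without adult EH 2 or 6 or aged EH 4 or 5), from 5 to 6 in adult DH and from 4 to 6 in aged DH. Motor genes called ranged from 2 to 3 in ageing, from 3 to 7 in adult DH (3 without adult EH 1, 4 or 5 or adult DH 2, 3, 4 or 5) and from 1 to 4 in aged DH (1 without aged EH 5), and the difference between ages stayed at 0 for both. In adult DH, Tubg2 was called by DESeq2 (-0.17, adjusted p = 0.036) and with quantile normalization (0.050), Kif5b by DESeq2 (0.10, adjusted p = 0.048), and in ageing Tuba1a with quantile normalization (-0.12, adjusted p = 0.036). Over all genes, 1934 were called in adult DH (edgeR 1936, DESeq2 2243), 1119 in aged DH (671 with no variance trend) and 921 in ageing (516 with no variance trend). Rats with the same number had weak correlations (-0.05 to 0.12 in ageing, -0.08 to 0.13 in adult DH and -0.06 to 0.16 in aged DH). Rats with different numbers were not compared, so whether such rats share more than a number was not tested. With the replicate block, over the rats whose number both groups held, 3 motor genes were called in adult DH and 1 in aged DH, Tuba1b missed the threshold in adult DH (adjusted p = 0.083), and calls over all genes were 980 in adult DH and 635 in aged DH. Precision is limited by 5 rats a group, and genes with few counts, such as Tuba1c and the kinesins of cell division, had wide intervals.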
